A study of Mus musculus with 9 samples.

Results

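Primary mouse neural stem cells were compared here by the date in their sample titles. Of 9 RNA-seq libraries, 3 carry no date in the title and form the undated group, and 6 carry a date, 3 of them 30 August and 3 of them 3 September. The undated members were the 3 columns of the gene count table whose headers hold no date. Every group has the same make-up: 1 library with the non-targeting short hairpin RNA (shNT) and 1 with each of 2 hairpins against Phf2, sh900 and sh902. Phf2 encodes a histone demethylase of the KDM7 family. All cells were embryonic neural stem cells labelled as subventricular zone, grown on laminin with 10 ng/mL fibroblast and 20 ng/mL epidermal growth factor, and RNA was taken 3 days after the hairpin treatment. The labels leave the meaning of the dates unsaid, and they do not state if the 3 labels stand for separate cultures or animals. All p-values below thus rest on the variation among 9 libraries, some of which may be technical. No strain, genotype or age enters the comparison.

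Neural stem cells in culture can keep a memory of the brain region they were taken from, through transcription factors such as Emx2 in the telencephalon and En2 at the border of midbrain and hindbrain. They can also respond to interferons, secreted antiviral proteins that bind surface receptors, activate JAK kinases and send STAT and IRF factors to the nucleus, where these switch on a large set of antiviral genes. Each undated library was set against the dated libraries with the same hairpin. Values are CPM, that is, counts scaled to a common library size with a correction for composition, and where 3 values are given for a group they stand in the order shNT, sh900, sh902. A CPM value is not divided by transcript length, so levels are compared between libraries and not between genes.

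Genes of the interferon response were higher in the undated libraries than in the dated ones, most of all against 30 August. Along the large difference between the dates the undated libraries lay in between. They held transcripts of telencephalic genes that were low on 30 August together with those of midbrain and hindbrain genes that were low on 3 September. Both sets of regional genes were picked after their levels were seen, and the interferon list with earlier results of these data known. In the fit that set all 3 undated libraries against all 6 dated libraries without regard to the date, no gene passed the adjusted threshold.

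Library totals ran from 23212472 to 32392496 estimated counts. The number of genes with any count was 31444 in the undated shNT library and 30614 in that of 3 September, against 23836 to 26747 in the other 7, and the mitochondrial share ran from 1.43% to 1.89%. Phf2, the targeted gene, was at 56.2, 19.8 and 24.99 CPM in the undated libraries, 52.8, 14.9 and 16.9 on 30 August and 48.6, 25.5 and 28.1 on 3 September. It was lower with both hairpins than with shNT at each label, with 35.2% and 44.4% of the control level left in the undated sh900 and sh902 libraries. Undated and dated libraries of the same hairpin differed by a mean of 0.12 on the log2 scale (two-sided exact permutation p = 0.63 over 27 choices of the undated library within each hairpin, of which the smallest possible p is 0.037). The neural stem cell genes Sox2, Nes, Vim, Fabp7 and Pax6 were detected in all 9 libraries, with Sox2 at 334, 217 and 172 CPM in the undated ones. Xist, transcribed from the inactive X chromosome, was at 1451, 1169 and 1153 CPM in the undated libraries and at 873 to 1686 CPM in the dated ones, and the Y-linked genes Ddx3y, Eif2s3y, Kdm5d and Usp9y were at 0 in all 9. Of the markers of other cell types, the fibroblast and meningeal list, with 11 of 14 genes tested, summed to 107, 271 and 163 CPM in the undated libraries, 89.7, 225 and 95.4 on 30 August and 123, 111 and 98.996 on 3 September, and the pericyte and smooth muscle list, with 4 of 10 tested, to 162 to 302 CPM over the 9 libraries. The microglial genes C1qa, C1qb and Tyrobp and the haemoglobin genes Hbb-bs and Hbb-bt were at 0 in all 9 libraries, and the endothelial gene Cdh5 did not exceed 0.114 CPM.

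The labels pose the question of which genes separate undated from dated libraries whatever the date. With the hairpin as a block, edgeR's quasi-likelihood test called 0 of 17602 genes (0%) at an adjusted p under 0.05, and the lowest adjusted p was 0.662. At an unadjusted p under 0.05 there were 489 genes, 271 higher (1.54%) and 218 lower (1.24%). On the same design DESeq2 called 54 genes and limma-voom 0. In this fit the difference between the dates is part of the spread. Counted without a test, all 3 undated libraries lay above all 6 dated ones at 99 genes (0.562%) and below all 6 at 76 genes (0.432%). The undated library was above both dated libraries of its hairpin, in 3 of 3 hairpins, at 504 genes (2.86%), below both at 462 genes (2.62%) and between them at 3088 genes (17.5%).

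The dates themselves were far apart, and the undated libraries lay between them. Among genes at least 2-fold apart between the dated libraries of 1 hairpin, the median undated position, on a log2 scale with 3 September at 0 and 30 August at 1, was 0.347 with shNT (4973 genes), 0.553 with sh900 (4428 genes) and 0.456 with sh902 (3069 genes). The undated value fell between both dated values for 81.1%, 77.7% and 74.98% of these genes. They were chosen on the dated libraries alone. A choice of genes far apart between 2 single libraries picks extremes, so another library tends to fall between them. With genes at least 4-fold apart the shares were 89.4%, 84.2% and 81.3%. How much of the share comes from the choice was not tested. The control leaned towards 3 September, with 31.7% of its genes closer to 30 August, against 56.0% with sh900 and 45.5% with sh902. Over all genes tested, the median absolute log2 difference of the undated shNT library was 0.468 to 30 August and 0.275 to 3 September, and 0.573 separated the dates. With sh900 these were 0.324, 0.378 and 0.533, and with sh902 0.307, 0.276 and 0.386. On the axis through the means of both dates the undated libraries stood at 0.0813 (shNT), 0.636 (sh900) and 0.646 (sh902), while the 30 August libraries stood at 0.885 to 1.11 and the 3 September libraries at -0.232 to 0.199. Only the control of the undated group thus lay within the range of a dated group on this axis, that of 3 September. The undated libraries were not points on a straight line from date to date. At the nearest point of that line, 0.36, 0.52 and 0.44 of the way from 3 September to 30 August, they were still off it by 0.454, 0.517 and 0.580 of its length.

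**Figure D1:**
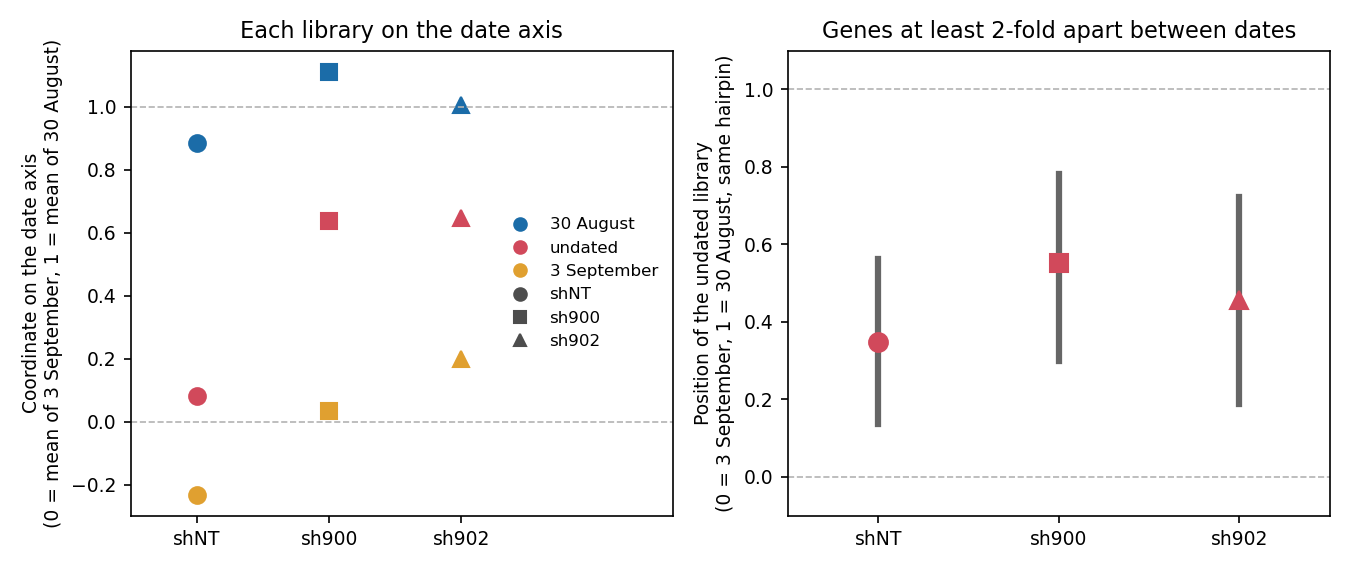
Left, coordinate of each of the 9 libraries on the axis through the mean of the 3 September libraries (0) and the mean of the 30 August libraries (1), by hairpin (shape) and label (colour). Right, median (symbol) and middle 50% (bar) of the position of the undated library between the dated libraries of its hairpin, over genes at least 2-fold apart between them, with medians of 0.347, 0.553 and 0.456.

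To separate the undated libraries from each date, both dates were given terms of their own in a fit with the hairpin as a block. Against 30 August, 381 genes were higher (2.16%) and 180 lower (1.02%). Against 3 September, 45 were higher (0.256%) and 54 lower (0.307%). These contrasts share the undated libraries. Against the mean of both dates, 64 genes were higher (0.364%) and 5 lower (0.0284%). The mean is taken on the log scale, so a gene may pass this contrast with its undated libraries between the dates. Of the 64 higher genes, 50 were above both dated libraries of the same hairpin in 3 of 3 hairpins and 7 were between them in 3 of 3. Its 69 calls fell to 0 or 1 without any 1 of the undated shNT, sh900 or sh902 libraries, the 30 August sh900 or sh902 libraries or the 3 September sh900 or sh902 libraries, and grew to 324 without the 30 August control. The contrast with 30 August made between 97 and 846 calls with 1 library left out. The fewest were without the 30 August sh900 library, with 96 of them among the 561, and the most without the 30 August control, with 467 among the 561. That with 3 September made between 0 and 835. It made 835 without the 30 August control, among them all 99 of the fit to 9 libraries. It made 0 without the undated sh902 or the 3 September sh902 library, 2 or 3 without the 3 September or the undated sh900 library, 8 (5 of them shared) without the 3 September control and 11 without the 30 August sh900 library. Every call against the mean of both dates named below was held in 1 to 3 of the 9 fits that leave out 1 library, and was lost without each of the undated libraries or of the sh900 and sh902 libraries of either date, except that Shh held without the undated control. At 37 genes the undated libraries passed against each date separately. At 30 of these they lay between the dates, at 5 above both and at 2 below both.

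**Figure D2:**
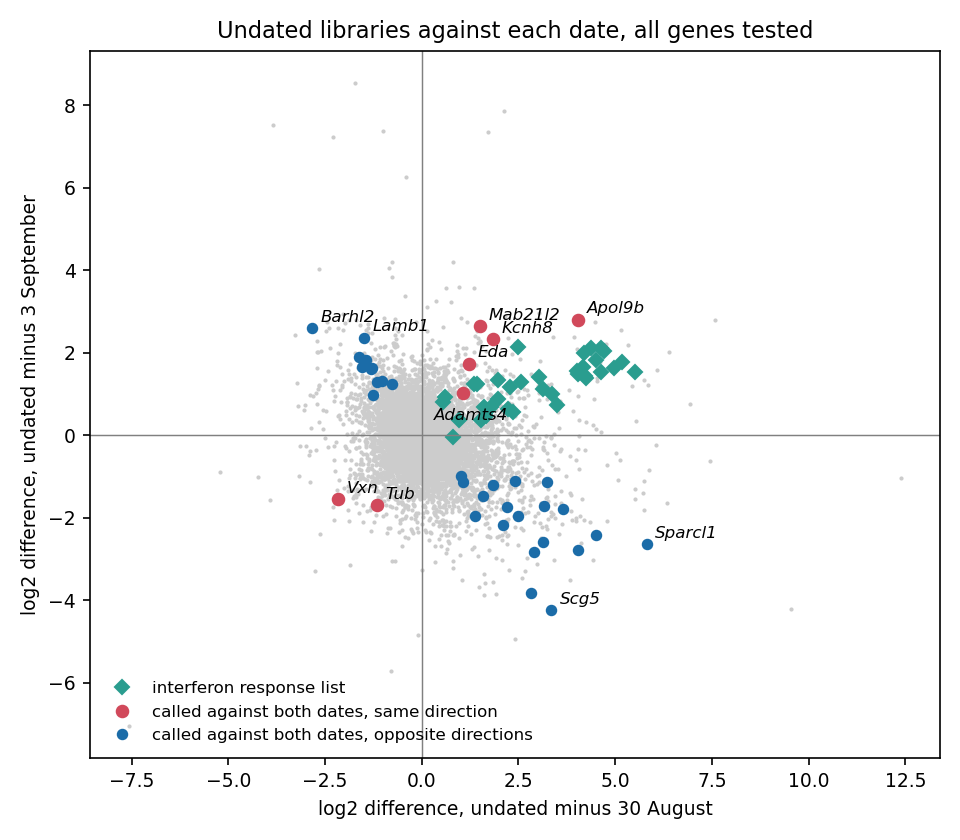
Each point is 1 of the 17602 genes tested, with its log2 difference between undated and 30 August libraries (horizontal) and between undated and 3 September libraries (vertical). Red points are the 7 genes called against both dates in the same direction, blue points the 30 called in opposite directions, and green diamonds the 35 genes of the interferon response list, of which 34 lie to the right of and above both zero lines.

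Interferon response genes stood above both dates. Of the 35 genes on the list, all tested, 31 were above both dated libraries of the same hairpin in 3 of 3 hairpins, and for 11 all 3 undated libraries were above all 6 dated ones. Over all genes these shares were 2.86% and 0.562%. The list was chosen with earlier results of these data known, so its counts are no independent support. Against the mean of both dates 12 members rose and 0 fell (0.364% and 0.0284% of all genes). Against 30 August 24 rose and 0 fell (2.16% and 1.02% of all genes). Against 3 September edgeR called 0 members (lowest adjusted p = 0.067), 25 were higher at an unadjusted p under 0.05, and DESeq2 called 15 and limma-voom 4. The median log2 difference of the list was 2.13 against the mean of both dates, 3.03 against 30 August and 1.28 against 3 September, where the median of all genes was -0.01, -0.03 and 0.00. In the fit without date terms 0 members passed, 28 had an unadjusted p under 0.05, all of them higher, and 7 were called by DESeq2. The summed level of the list was 2035, 3521 and 2235 CPM in the undated libraries, 478, 539 and 611 on 30 August and 569, 1989 and 1543 on 3 September. The 30 August libraries were thus low with every hairpin, while on 3 September the control was low and the Phf2 hairpin libraries were close to the undated range. The 12 calls against the mean of both dates became 0 without any 1 of the undated libraries, of the 30 August sh900 and sh902 libraries or of the 3 September sh900 and sh902 libraries, and 17 without either dated control. The 24 calls against 30 August ran from 6, without the 30 August sh900 library, to 31, without the 3 September control. They were 0 without the 3 sh900 libraries, 1 without the 3 sh902 libraries, 15 with no low-count filter and 10 with the hairpin block left out, where 0 members were called against the mean of both dates. They became 12 without the undated sh900 library, 14 without the undated control, 16 without the undated or the 3 September sh902 library and 12 without the 30 August sh902 library.

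The genes were also grouped by role in the pathway, and these groups were picked after their values were seen. For the start of the pathway the levels are given, since its few genes allow no reading of the number of calls. Genes of the interferon ligands were at or near 0. The 10 ligand genes examined, Ifnb1 and Ifng among them, summed to 0.0964 to 0.292 CPM in the undated libraries and 0.0792 to 0.615 CPM in the dated ones, and none passed the expression filter. Of 6 receptor genes 0 were called against either date, and their median log2 difference was -0.08 against 30 August and 0.17 against 3 September. Over all genes 2.16% rose and 1.02% fell against 30 August, and 0.256% and 0.307% against 3 September. At these shares 0 calls among 6 receptor or 3 kinase genes do not set them apart from other genes. Ifnar1, a chain of the type I interferon receptor, was at 127, 133 and 130.4 CPM in the undated libraries, 135, 158 and 142 on 30 August and 122, 109.8 and 119 on 3 September. Its log2 difference was -0.15 ± 0.12 (SE, adjusted p = 0.577) against 30 August and 0.15 ± 0.12 (SE, adjusted p = 0.601) against 3 September. The partner chain Ifnar2 was at 27.3, 37.4 and 22.5 CPM in the undated libraries. Of the kinases Jak1, Jak2 and Tyk2, which pass the receptor signal on, 0 were called, with differences of 0.01, 0.09 and 0.03 against 30 August.

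Of 6 transcription factors of the pathway, 3 rose against the mean of both dates, 5 against 30 August and 0 against 3 September, where their median log2 difference was 0.53. Over all genes 0.364%, 2.16% and 0.256% rose in these contrasts. Irf7 (ENSMUSG00000025498, chromosome 7, 141262706 to 141266481, minus strand), the factor that amplifies the response, was at 36.9, 121 and 39.2 CPM in the undated libraries. It was at 1.73, 4.20 and 4.05 CPM on 30 August and 4.61, 36.1 and 16.2 CPM on 3 September. All 3 undated values were above all 6 dated ones, although the undated control at 36.9 CPM was close to the 3 September sh900 library at 36.1. The exact permutation test of undated against dated libraries gave p = 0.074 for Irf7, Isg15 and Ifit1. It gave 0.037, the smallest possible, for B2m and Adamts4. These genes were named with their values known, and in each the undated library was the highest of its hairpin. The p-values restate that order and are no separate support. The log2 difference of Irf7 was 3.09 ± 0.32 (SE, adjusted p = 0.0239) against the mean of both dates, 4.20 ± 0.43 (SE, adjusted p = 0.00592) against 30 August and 1.99 ± 0.38 (SE, adjusted p = 0.0744) against 3 September. Stat2 and Irf9 encode proteins of the complex that carries the receptor signal to the nucleus. Irf9 was at 76.8, 109.8 and 62.3 CPM in the undated libraries, 13.3, 22.4 and 13.5 on 30 August and 32.9, 82.9 and 57.2 on 3 September. The undated value was the highest of its hairpin each time, and its log2 difference was 2.35 ± 0.21 (SE, adjusted p = 0.00268) against 30 August and 0.57 ± 0.20 (SE, adjusted p = 0.247) against 3 September. Stat2 was at 57.98, 71.2 and 42.7 CPM in the undated libraries, 22.1, 17.4 and 13.9 on 30 August and 34.1, 47.2 and 39.5 on 3 September, with a log2 difference of 1.08 ± 0.16 (SE, adjusted p = 0.0447) against the mean of both dates. The calls of Irf7 and Irf9 against 30 August held in 9 of 9 fits that leave out 1 library. That of Stat2 was lost without the 30 August sh900 library (adjusted p = 0.0627). Irf3, which is activated by modification of the protein, was at 34.5, 38.6 and 35.3 CPM in the undated libraries against 35.3, 32.97 and 36.96 on 30 August, and was not called.

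Of 7 sensors and adaptors of foreign nucleic acid, 1 rose against the mean of both dates, 3 against 30 August and 0 against 3 September. Ddx58, the gene of the RNA sensor RIG-I, was at 86.2, 127 and 86.3 CPM in the undated libraries, 18.3, 33.6 and 26.9 on 30 August and 31.7, 78.3 and 60.2 on 3 September. Every undated value exceeded every dated value, and the log2 difference was 1.42 ± 0.15 (SE, adjusted p = 0.021) against the mean of both dates. Ifih1, which encodes the related sensor MDA5, was at 30.7, 39.3 and 27.2 CPM in the undated libraries and 4.57, 24.2 and 19.8 on 3 September, and was not called against either date. Mavs, the adaptor below both sensors, was at 28.8, 38.01 and 26.7 CPM in the undated libraries, 37.6, 47.7 and 24.4 on 30 August and 28.7, 30.8 and 30.9 on 3 September, and was not called. Of 12 interferon-induced GTPase genes, 5 rose against the mean of both dates, 9 against 30 August and 0 against 3 September. The shares of all genes that rose were 0.364%, 2.16% and 0.256%, and both groups were picked after their values were seen. Those called against the mean of both dates were Irgm1, Irgm2, Igtp, Iigp1 and Ifi47. Irgm2 was at 26.9, 46.01 and 25.7 CPM in the undated libraries, 1.04, 1.50 and 1.75 on 30 August and 4.42, 22.4 and 15.8 on 3 September, a log2 difference of 4.53 ± 0.43 (SE, adjusted p = 0.00328) against 30 August. Ifi47 had 1 count in each 30 August library and was at 0.729, 3.02 and 2.01 CPM in the undated ones, so no fold is given for it. Gbp5, of the guanylate-binding family, did not lie above both dates. It was at 6.78, 5.01 and 9.86 CPM in the undated libraries, above 1.15, 0.633 and 3.93 on 30 August and below 9.52, 9.49 and 12.3 on 3 September within each hairpin. The calls of Ddx58, Irgm1, Irgm2, Igtp and Iigp1 against 30 August held in 9 of 9 fits that leave out 1 library. That of Gbp5 held in 4 of the 9 fits (adjusted p up to 0.125).

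Bst2, which encodes tetherin, a protein that holds budding virus at the cell surface, was at 88.3, 198 and 167 CPM in the undated libraries. On 30 August it was at 4.07, 6.45 and 9.52 and on 3 September at 9.86, 67.2 and 81.6 CPM. Undated and dated groups did not overlap, although the undated control at 88.3 CPM was close to the 3 September sh902 library at 81.6. The log2 difference was 3.17 ± 0.36 (SE, adjusted p = 0.0385) against the mean of both dates. Isg15, a ubiquitin-like modifier, was at 31.2, 60.2 and 43.9 CPM in the undated libraries, 1.08, 1.31 and 3.54 on 30 August and 2.36, 22.5 and 14.8 on 3 September. It rose by 4.62 ± 0.66 (SE, adjusted p = 0.0221) against 30 August. Ifit1, whose protein binds viral RNA, was at 67.4, 114 and 71.5 CPM in the undated libraries, 2.92, 4.08 and 10.5 on 30 August and 6.02, 71.9 and 44.3 on 3 September. The 3 September sh900 library exceeded the undated control, and Ifit1 was not called against either date (adjusted p = 0.0585 and 0.395). Oas2, of the family that makes the second messenger of RNase L, was at 3.68, 10.9 and 4.90 CPM in the undated libraries against 0.231, 0.198 and 0.427 on 30 August and 0.457, 2.75 and 1.58 on 3 September. The call of Oas2 against 30 August held in 9 of 9 fits that leave out 1 library. That of Bst2 was lost without the undated shNT, or 30 August sh900 or sh902 library (adjusted p up to 0.0643). That of Isg15 held in 3 of the 9 fits (adjusted p up to 0.0843).

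B2m (ENSMUSG00000060802, chromosome 2, 122147686 to 122153083, plus strand), the light chain of MHC class I, was at 94.8, 203 and 109.9 CPM in the undated libraries, 43.1, 55.6 and 43.6 on 30 August and 29.1, 79.4 and 66.8 on 3 September. The groups did not overlap, and the log2 difference was 1.33 ± 0.20 (SE, adjusted p = 0.0437) against the mean of both dates. The class I heavy chain gene H2-D1 rose by 1.80 ± 0.18 (SE, adjusted p = 0.00328) against 30 August, while H2-K1 was at 72.6, 164 and 75.1 CPM in the undated libraries against 82.1, 80.3 and 34.4 on 30 August. Usp18, which encodes a protease that damps the receptor signal, was at 53.9, 90.9 and 67.7 CPM in the undated libraries, 2.77, 4.31 and 7.17 on 30 August and 7.43, 40.6 and 38.3 on 3 September. The call of H2-D1 against 30 August held in 9 of 9 fits that leave out 1 library. That of Usp18 was lost without the 30 August sh900 library (adjusted p = 0.0582). That of B2m held in 3 of the 9 fits (adjusted p up to 0.144). Ifit2, the list member with the smallest difference from the dated libraries, was at 36.4, 27.1 and 38.3 CPM in the undated libraries and 24.9, 33.02 and 45.8 on 3 September. Several of these genes have close copies (Ifit3 and Ifit3b, Oas1a, the Gbp genes, Tgtp1 and Tgtp2, Apol9a and Apol9b, the class I genes), between which reads could have been split. Markers of immune cells are given beside these values. Of 15 microglia and macrophage markers 3 passed the filter, and the list summed to 67.4, 37.3 and 34.1 CPM in the undated libraries, 31.8, 32.6 and 32.9 on 30 August and 54.2, 40.7 and 43.03 on 3 September. Ptprc, the pan-leukocyte gene, did not exceed 0.620 CPM in any library. The part of immune cells in the interferon values was not tested. In bulk RNA, more cells with a response and a stronger response per cell cannot be told apart.

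**Figure D3:**
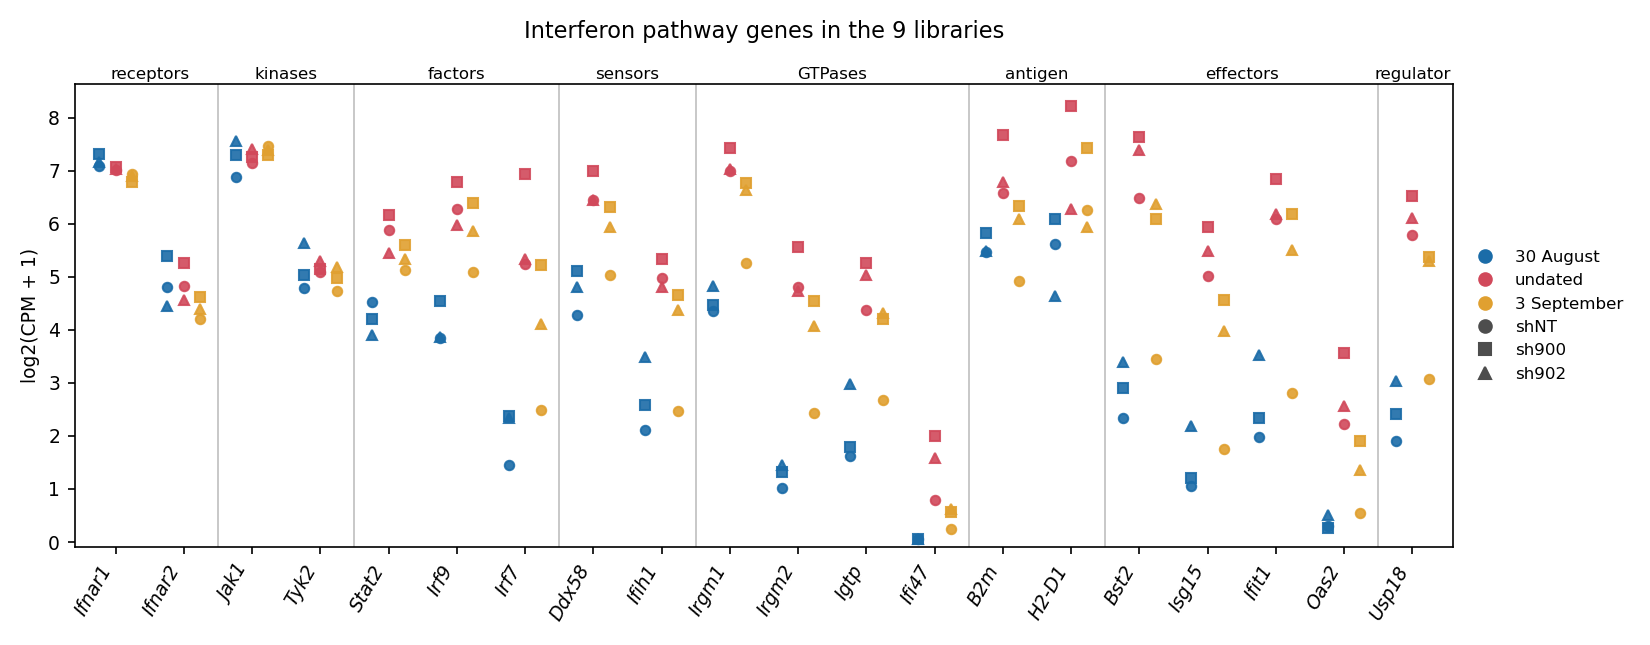
Level of 20 interferon pathway genes as log2(CPM + 1) in each of the 9 libraries, by label (colour) and hairpin (shape), grouped by role. Receptor and kinase genes overlap between labels, while for genes such as Irf7, Ddx58, B2m and Bst2 the 3 undated libraries lie above all 6 dated ones.

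The promoters of these genes were read because the members moved together and the interferon-activated complex that holds STAT2 and IRF9 is known to bind a pair of GAAA repeats. The letters GAAANNGAAA were searched on both strands in RefSeq promoter windows of GRCm38.p6, each from 250 bases before to 50 bases after the start of the gene, with overlapping matches kept. Windows were found for 28 of the 35 list members, and 13 of them (46.4%) held the letters. Among all 27025 genes with a window the share was 3.99%, and among the genes tested that have a window it was 3.6%. A gene with several windows was counted if any of them held the letters. The list is one of interferon response genes, so its share describes the list and not the undated libraries. Of its 12 members called higher against the mean of both dates, 8 had a window and 4 of these (50%) held the letters. Of all 64 genes higher in that contrast, these members included, 43 had a window and 13 of these (30.2%) held the letters. Shown are 40 bases on each side of the matches, cut at the end of the window, for members called against the mean of both dates whose match lies before the start (B2m, Bst2 and Stat2) and for Isg15, Ifit1 and Ifit3, where matches cluster. Sequences run 5′ to 3′ on the strand of the gene and capitals mark the matched letters, which read TTTCNNTTTC where the match is on the other strand.
B2m, chr2:122147508-122147597, plus strand: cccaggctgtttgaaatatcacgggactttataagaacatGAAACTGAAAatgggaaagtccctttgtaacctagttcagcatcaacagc
Bst2, chr8:71537547-71537642, minus strand: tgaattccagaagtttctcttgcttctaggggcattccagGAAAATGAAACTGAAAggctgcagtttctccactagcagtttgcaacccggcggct
Stat2, chr10:128270248-128270325, plus strand: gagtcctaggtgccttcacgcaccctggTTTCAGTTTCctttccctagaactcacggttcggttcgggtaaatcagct
Isg15, chr4:156200835-156200936, minus strand: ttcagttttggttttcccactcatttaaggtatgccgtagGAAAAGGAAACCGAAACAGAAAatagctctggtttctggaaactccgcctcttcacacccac
Ifit1, chr19:34640745-34640853, plus strand: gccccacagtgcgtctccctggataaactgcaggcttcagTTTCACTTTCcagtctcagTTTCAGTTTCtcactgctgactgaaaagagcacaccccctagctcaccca
Ifit3, chr19:34583333-34583456, plus strand: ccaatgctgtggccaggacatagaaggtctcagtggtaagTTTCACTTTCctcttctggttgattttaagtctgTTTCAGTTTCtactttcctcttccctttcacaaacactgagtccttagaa
Bst2, Isg15, Ifit1 and Ifit3 held more than 1 match, in Isg15 as an unbroken run of overlapping ones that starts 78 bases before the start of the gene. Ddx58, a called member, held its match after its start and is not printed. A match is a description of the letters and not evidence of binding in these cells.

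Few genes lay above or below both dates with a call against each, and no member of the interferon list was among them. Those above were Apol9b, Kcnh8, Mab21l2, Eda and Adamts4. Apol9b was not on the list but is named above with the interferon genes that have close copies. Whether the difference of Apol9b is separate from the interferon response was not tested. Apol9b (ENSMUSG00000068246, chromosome 15, 77729039 to 77736382, plus strand), an apolipoprotein L gene, was at 1.93, 15.3 and 9.28 CPM in the undated libraries, 0.231, 0.515 and 0.640 on 30 August and 0.152, 2.31 and 1.53 on 3 September. Its log2 difference was 4.04 ± 0.45 (SE, adjusted p = 0.00514) against 30 August and 2.80 ± 0.40 (SE, adjusted p = 0.0341) against 3 September. Adamts4 (ENSMUSG00000006403, chromosome 1, 171250421 to 171260637, plus strand), which encodes an aggrecan-cleaving protease, was at 116, 116 and 175 CPM in the undated libraries, 57.7, 47.02 and 97.8 on 30 August and 50.6, 48.6 and 115 on 3 September. Every undated value was above every dated one, with the lowest undated value close to the 3 September sh902 library. The log2 difference of Adamts4 was 1.06 ± 0.16 (SE, adjusted p = 0.0137) against 30 August and 1.02 ± 0.16 (SE, adjusted p = 0.041) against 3 September. Mab21l2, a gene of eye and midbrain development, was at 5.87, 6.94 and 6.42 CPM in the undated libraries and did not exceed 3.05 CPM in any dated one. The potassium channel gene Kcnh8 was at 2.19, 4.47 and 3.29 CPM, against 0.807, 1.46 and 0.512 on 30 August and 0.419, 0.843 and 0.705 on 3 September. Eda, a ligand of the tumour necrosis factor family, was at 17.4, 31.6 and 47.1 CPM, where the undated control overlapped the dated sh902 libraries. Against 3 September these 5 calls held in 1 to 3 of the 9 fits that leave out 1 library, and all 5 were lost without the undated sh900, undated sh902 or any 3 September library (adjusted p up to 0.286). The call of Apol9b against 30 August held in 9 of 9 fits that leave out 1 library. Those of Kcnh8, Mab21l2, Eda and Adamts4 held in 2, 3, 1 and 5 of the 9 fits in that order (adjusted p up to 0.192).

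Below both dates lay Vxn and Tub. Vxn (ENSMUSG00000067879, chromosome 1, 9601199 to 9627143, plus strand), which encodes vexin, a protein of neurogenesis, was at 18.9, 7.33 and 4.87 CPM in the undated libraries. On 30 August it was at 72.03, 34.3 and 24.1 and on 3 September at 62.8, 25.1 and 9.87 CPM. It was lowest in the undated library of every hairpin, with a log2 difference of -2.16 ± 0.22 (SE, adjusted p = 0.00328) against 30 August and -1.54 ± 0.22 (SE, adjusted p = 0.0341) against 3 September. Tub, the gene of the tubby protein of neurons and cilia, was at 47.6, 18.8 and 17.6 CPM in the undated libraries, 114, 55.97 and 27.7 on 30 August and 143, 84.8 and 44.7 on 3 September, with differences of -1.15 ± 0.19 (SE, adjusted p = 0.0193) against 30 August and -1.69 ± 0.19 (SE, adjusted p = 0.0219) against 3 September. In both genes the level was highest with shNT and lowest with sh902 in every label, so undated and dated values overlap unless the hairpin is held fixed. Basp1, which encodes a membrane protein of growth cones, was called against the mean of both dates at -1.53 ± 0.23 (SE, adjusted p = 0.0432) but missed the threshold against 3 September (adjusted p = 0.0546). The call of Vxn against 30 August held in 9 of 9 fits that leave out 1 library. That of Basp1 was lost without the undated sh900 or sh902 library (adjusted p up to 0.0718). That of Tub held in 5 of the 9 fits (adjusted p up to 0.131). The calls of Vxn and Tub against 3 September held in 2 and 3 of the 9 fits in that order (adjusted p up to 0.243).

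Among genes of brain regions, the undated libraries lay between the dates in 3 of 3 hairpins at 5 of 8 telencephalic and 4 of 7 midbrain and hindbrain genes (17.5% of all genes lay so). Both sets were drawn up after the levels were seen, so the counts given for them follow in part from that choice. Over all genes 2.16% rose against 30 August and 0.307% fell against 3 September. Of the 8 telencephalic genes, all rose against 30 August and 1, Dmrta2, fell against 3 September. Emx2, a factor of the dorsal telencephalon, was at 14.8, 28.2 and 19.6 CPM in the undated libraries, 1.54, 2.85 and 1.49 on 30 August and 15.7, 21.8 and 22.3 on 3 September. Its differences were 3.41 ± 0.23 (SE, adjusted p = 0.00137) against 30 August and 0.02 ± 0.20 (SE, adjusted p = 0.967) against 3 September. Dmrta2, another dorsal factor, was at 8.97, 9.51 and 10.9 CPM in the undated libraries and lay clear of both dates, at 0.807, 1.07 and 1.28 CPM on 30 August and 19.2, 19.1 and 26.5 on 3 September. It was called against both, at 3.23 ± 0.20 (SE, adjusted p = 0.00111) against 30 August and -1.13 ± 0.18 (SE, adjusted p = 0.0421) against 3 September. The call of Dmrta2 against 3 September held in 2 of the 9 fits (adjusted p up to 0.278). Dlx1, a factor of ventral progenitors and interneurons, was highest in the control at every label. Dlx1 was at 31.9, 11.2 and 7.21 CPM in the undated libraries, 0.884, 0.633 and 0.726 on 30 August and 62.3, 10.2 and 7.17 on 3 September. Its difference was 4.21 ± 0.52 (SE, adjusted p = 0.00906) against 30 August. Lhx2, a factor of the cortical and hippocampal field, was at 117, 84.7 and 70.4 CPM in the undated libraries, 45.3, 21.8 and 20.6 on 30 August and 132, 107 and 88.5 on 3 September. The calls of Emx2, Dmrta2, Lhx2 and Dlx2 against 30 August held in 9 of 9 fits that leave out 1 library. That of Dlx1 was lost without the 30 August sh900 library (adjusted p = 0.0679).

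Genes of the midbrain and hindbrain ran the other way. Of 7 tested, 4 rose against 3 September and 2 fell against 30 August (0.256% and 1.02% of all genes). En2 (ENSMUSG00000039095, chromosome 5, 28165694 to 28172166, plus strand), a factor of the midbrain and anterior hindbrain, was at 48.3, 81.4 and 50.8 CPM in the undated libraries, 81.4, 144 and 69.1 on 30 August and 9.10, 10.7 and 9.24 on 3 September. Every undated value was more than 4 times every 3 September value. The log2 difference was 2.59 ± 0.18 (SE, adjusted p = 0.00317) against 3 September and -0.68 ± 0.17 (SE, adjusted p = 0.078) against 30 August. Cnpy1, which is expressed at the midbrain-hindbrain border, was at 62.9, 32.4 and 36.6 CPM in the undated libraries, 64.5, 56.8 and 62.6 on 30 August and 16.5, 10.8 and 9.33 on 3 September. Barhl2 (ENSMUSG00000034384, chromosome 5, 106452523 to 106458166, minus strand), a factor of the diencephalon and midbrain, separated all labels. It was at 3.57, 6.62 and 9.16 CPM in the undated libraries, 32.6, 39.9 and 60.5 on 30 August and 0.686, 1.28 and 1.08 on 3 September. Its log2 difference was -2.83 ± 0.22 (SE, adjusted p = 0.00176) against 30 August and 2.60 ± 0.23 (SE, adjusted p = 0.0111) against 3 September. Irx1, of the Iroquois family, was at 24.1, 9.57 and 5.11 CPM in the undated libraries and was called in the same directions, at -1.32 ± 0.26 (SE, adjusted p = 0.0355) against 30 August and 1.61 ± 0.26 (SE, adjusted p = 0.0471) against 3 September. Gbx2, an anterior hindbrain factor, was at 1.57, 12.8 and 2.83 CPM in the undated libraries and was not called. The summed level of the 8 telencephalic genes was 277, 222 and 189 CPM in the undated libraries, 61.1, 43.3 and 35.6 on 30 August and 378, 248 and 230.4 on 3 September. That of the midbrain and hindbrain genes was 143, 148 and 107 CPM in the undated libraries, 219, 284 and 211 on 30 August and 36.7, 28.9 and 23.8 on 3 September. The call of En2 against 3 September was lost without the undated sh902, or 3 September sh902 library (adjusted p up to 0.0709). Those of Barhl2, Cnpy1 and Irx1 held in 4, 3 and 1 of the 9 fits in that order (adjusted p up to 0.288). The call of Barhl2 against 30 August held in 9 of 9 fits that leave out 1 library. That of Irx1 held in 2 of the 9 fits (adjusted p up to 0.184). Whether 1 cell held transcripts of both sets cannot be told apart from a mixture of cells in bulk RNA.

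On the longer list of 32 forebrain regional genes, 25 were tested. Of these 9 rose and 0 fell against 30 August, 2 rose and 1 fell against 3 September, and 4 rose against the mean of both dates, Emx2, Dmrta2 and Six3 among them. Over all genes 2.16%, 0.256% and 0.364% rose in these contrasts. Six3, a factor of the anterior forebrain and eye, did not follow the telencephalic set. It was lower on 3 September than on 30 August, and the undated library was the highest of each hairpin. Six3 was at 16.2, 21.8 and 17.1 CPM in the undated libraries, 14.5, 17.3 and 11.99 on 30 August and 6.28, 5.72 and 5.72 on 3 September. It rose against 3 September by 1.62 ± 0.19 (SE, adjusted p = 0.0219), and against 30 August its difference of 0.34 ± 0.18 (SE, adjusted p = 0.38) did not pass. The call of Six3 against 3 September held in 3 of the 9 fits (adjusted p up to 0.198). On the list of posterior genes, of which 14 of 24 were tested, Hoxa3, Hoxa5 and Irx5 fell against 30 August (-2.12, -2.70 and -1.30). Over all genes 1.02% fell in that contrast. En2, already counted above with the midbrain and hindbrain genes, rose against 3 September (0.256% of all genes). The calls of Hoxa3, Hoxa5 and Irx5 against 30 August held in 1, 5 and 4 of the 9 fits in that order (adjusted p up to 0.196).

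**Figure D4:**
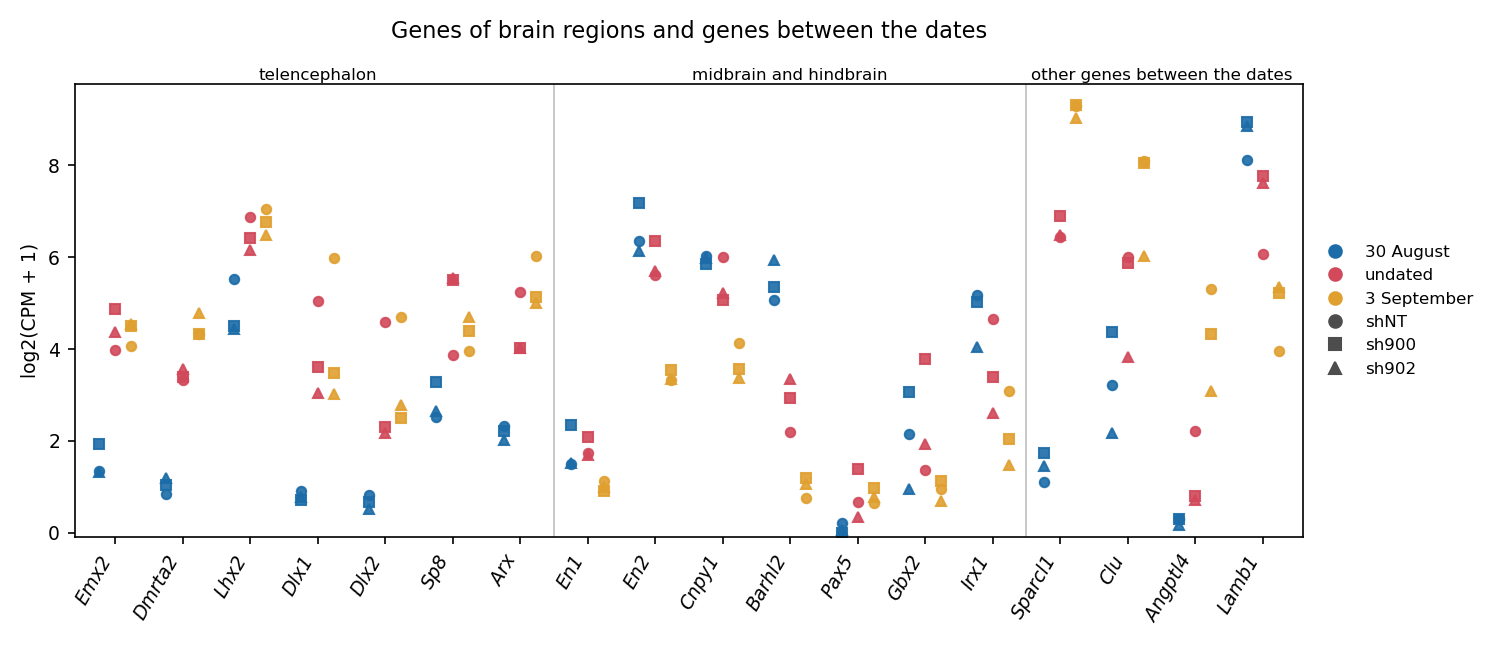
Level of 7 of the 8 telencephalic genes, 7 midbrain and hindbrain genes and 4 other genes as log2(CPM + 1) in each of the 9 libraries, by label (colour) and hairpin (shape). Undated libraries are near 3 September for Emx2, near 30 August for En2 and between the dates for Barhl2, Sparcl1 and Lamb1.

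The 30 genes called in opposite directions against the dates were led by Sparcl1 (ENSMUSG00000029309, chromosome 5, 104079111 to 104113733, minus strand), a secreted matrix protein of astrocytes and quiescent stem cells. It was at 85.6, 118 and 89.1 CPM in the undated libraries, 1.15, 2.34 and 1.75 on 30 August and 628, 632 and 526 on 3 September. The 3 labels formed separate bands with no overlap. The log2 difference was 5.81 ± 0.23 (SE, adjusted p = 7.48e-05) against 30 August and -2.63 ± 0.19 (SE, adjusted p = 0.00317) against 3 September. Scg5, which encodes a chaperone of hormone-processing enzymes, was at 0.948, 0.771 and 0.457 CPM in the undated libraries, at 1 or 2 counts per library on 30 August and at 19.004, 13.1 and 9.45 on 3 September. Clu, the clusterin gene of astrocytes, was at 63.2, 57.6 and 13.3 CPM in the undated libraries, 8.37, 19.8 and 3.54 on 30 August and 271, 263 and 64.4 on 3 September. Others of the 19 genes between a low 30 August and a high 3 September were the glutamate transporter gene Slc1a2, the kinase gene Cdk6, the kainate receptor gene Grik2 and Angptl4, a regulator of lipoprotein lipase. Grik2 was at 22.6, 9.64 and 13.9 CPM in the undated libraries, 1.11, 1.27 and 1.02 on 30 August and 85.8, 37.7 and 38.8 on 3 September. In the opposite group of 11, Lamb1, a laminin chain, was at 66.7, 218 and 195 CPM in the undated libraries, 276, 496 and 461 on 30 August and 14.7, 36.1 and 39.6 on 3 September, with differences of -1.50 ± 0.19 (SE, adjusted p = 0.00748) against 30 August and 2.37 ± 0.20 (SE, adjusted p = 0.00765) against 3 September. Epha2, a receptor of cell contact, was at 1.24, 18.2 and 19.9 CPM in the undated libraries, 7.34, 40.1 and 48.2 on 30 August and 0.381, 4.84 and 4.81 on 3 September. The guidance gene Sema3e and the TGF-beta binding protein gene Ltbp1 had the same order within each hairpin. The calls of Sparcl1, Clu and Grik2 against 30 August held in 9 of 9 fits that leave out 1 library. Those of Lamb1 and Scg5 were lost without the 30 August sh900 library (adjusted p = 0.0559 and 0.0559). That of Epha2 held in 2 of the 9 fits (adjusted p up to 0.0953). The call of Sparcl1 against 3 September was lost without the undated sh902, or 3 September sh902 library (adjusted p up to 0.0709). That of Scg5 was lost without the undated sh902, or 3 September sh900 or sh902 library (adjusted p up to 0.0734). Those of Clu, Lamb1, Grik2 and Epha2 held in 4, 4, 3 and 2 of the 9 fits in that order (adjusted p up to 0.278).

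Shh, the gene of the morphogen Sonic hedgehog, was among the genes highest against the mean of both dates. Shh was at 0.365, 8.84 and 29.3 CPM in the undated libraries, 0.0768, 0.198 and 0.939 on 30 August and 0.229, 1.36 and 5.51 on 3 September. Within each hairpin the undated library was the highest, but the undated control was below 3 of the 4 dated libraries with a Phf2 hairpin, and the level was lowest with shNT and highest with sh902 in every label. The log2 difference was 3.49 ± 0.36 (SE, adjusted p = 0.021) against the mean of both dates and 4.76 ± 0.51 (SE, adjusted p = 0.00438) against 30 August. The call of Shh against 30 August was lost without the 30 August sh900 library (adjusted p = 0.0583). Of the 15 pathway genes tested Shh was the only one called in either contrast, and the list's median was 0.44 against the mean of both dates. Fos and Zfp36, of the immediate early genes that respond to growth factors and handling, were low on 30 August. Fos was at 404, 474 and 334 CPM in the undated libraries, 71.3, 62.3 and 97.7 on 30 August and 307, 428 and 336 on 3 September, with a log2 difference of 2.39 ± 0.23 (SE, adjusted p = 0.00316) against 30 August and 0.19 ± 0.22 (SE, adjusted p = 0.729) against 3 September. Of 23 immediate early genes 6 rose against 30 August (2.16% of all genes), among them Fosb, Junb and Nr4a1, and 0 passed against 3 September. Of 42 matrix genes, 2 rose against the mean of both dates (0.364% of all genes). Mmp14, a membrane-bound collagenase, was at 46.3, 47.3 and 47.1 CPM in the undated libraries, 7.07, 8.19 and 6.06 on 30 August and 86.3, 66.5 and 69.8 on 3 September. Thbs2, a thrombospondin, was at 6.13, 12.6 and 8.83 CPM in the undated libraries and above both dated libraries of every hairpin, although in Mmp14 the undated libraries lay between the dates. The calls of Fos and Mmp14 against 30 August held in 9 of 9 fits that leave out 1 library. That of Fosb was lost without the undated shNT or sh900, or 30 August sh900 library (adjusted p up to 0.094). Those of Junb, Nr4a1 and Thbs2 held in 4, 3 and 5 of the 9 fits in that order (adjusted p up to 0.134).

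Genes of glial differentiation that were called lay between the dates. For the counts below, the shares over all genes were 2.16% higher against 30 August and 0.307% lower against 3 September. Of 18 astrocyte genes 5 rose against 30 August (Aldh1l1, Aqp4, Clu, Mlc1 and Slc1a2) and 2 fell against 3 September (Clu and Slc1a2). The list's median log2 difference was 0.85 against 30 August and -0.85 against 3 September. Aqp4, the water channel of astrocytes, was at 644, 69.1 and 56.2 CPM in the undated libraries, 46.1, 5.42 and 12.1 on 30 August and 1511, 538 and 291 on 3 September. The undated control exceeded the 3 September sh900 and sh902 libraries. Gfap, the astrocyte filament gene, was at 609, 59.4 and 67.4 CPM in the undated libraries and was not called against either date (adjusted p = 0.208 and 0.357). Of 17 oligodendrocyte lineage genes 3 rose against 30 August and 2 fell against 3 September. Sox10, a factor of the lineage, was at 17.8, 3.15 and 1.80 CPM in the undated libraries, 0.231, 0.317 and 0.341 on 30 August and 73.01, 31.2 and 12.02 on 3 September. Mbp, a myelin gene, fell against 3 September, with a log2 difference of -2.44 ± 0.35 (SE, adjusted p = 0.0341). Of 26 neuronal genes 7 rose against 30 August, among them the GABA synthesis genes Gad1 and Gad2 (2.70 and 3.999), and Dcx, a microtubule gene of migrating neuroblasts, fell against 3 September. Dcx was at 9.96, 1.29 and 1.16 CPM in the undated libraries and 103, 19.3 and 7.30 on 3 September. Hes5, a Notch target of progenitors, was at 466, 132 and 113 CPM in the undated libraries and rose against 30 August by 3.34 ± 0.51 (SE, adjusted p = 0.0258). Of 22 Notch pathway genes 3 rose against 30 August and 0 passed against 3 September. Hmga2, a chromatin gene of young progenitors, fell against 30 August, with a log2 difference of -2.61 ± 0.32 (SE, adjusted p = 0.00906), at 2.48, 51.4 and 26.3 CPM in the undated libraries against 18.2, 392 and 109. The calls of Gad1 and Gad2 against 30 August held in 9 of 9 fits that leave out 1 library. That of Aldh1l1 was lost without the 30 August sh900 library (adjusted p = 0.0613). That of Hmga2 was lost without the undated sh900, or 30 August sh900 library (adjusted p up to 0.0577). That of Slc1a2 was lost without the undated shNT or sh902, or 30 August sh902 library (adjusted p up to 0.0792). Those of Aqp4, Mlc1, Sox10 and Hes5 held in 3, 1, 3 and 3 of the 9 fits in that order (adjusted p up to 0.147). The calls of Clu, Slc1a2, Mbp and Dcx against 3 September held in 4, 4, 3 and 2 of the 9 fits in that order (adjusted p up to 0.284).

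None of 44 mitosis, 44 DNA replication or 41 replication-dependent histone genes was called by edgeR in any contrast, and at an unadjusted p under 0.05 there were 0 as well. Over all genes 2.16% rose and 1.02% fell against 30 August, and 0.256% and 0.307% against 3 September. Against the mean of both dates 0.364% rose and 0.0284% fell. At such shares few adjusted calls would fall in lists of this size. Unadjusted, 3195 of 17602 genes passed against 30 August and 2686 against 3 September. In the control, the undated level of mitosis genes lay between the dates, with a median log2 difference of -1.46 to 30 August and 2.47 to 3 September. With sh900 these medians were 0.82 and 0.40, and with sh902 0.73 and 0.10. The undated hairpin libraries were thus above both dates, while the control was not. Top2a, the topoisomerase of dividing cells, was at 249, 316 and 386 CPM in the undated libraries, 678, 164 and 192 on 30 August and 50.5, 255 and 344 on 3 September. The test of whether the undated difference of the control differs from that of both Phf2 hairpins called 0 of 17602 genes (0%) with edgeR, with DESeq2 and with limma-voom, and 158 had an unadjusted p under 0.05 with edgeR. Each hairpin has 1 undated library, so this contrast sets 1 control against 2 libraries. DNA replication genes had medians of -1.70 and 0.87 in the control, and the histone genes -1.13 and 1.58.

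**Figure D5:**
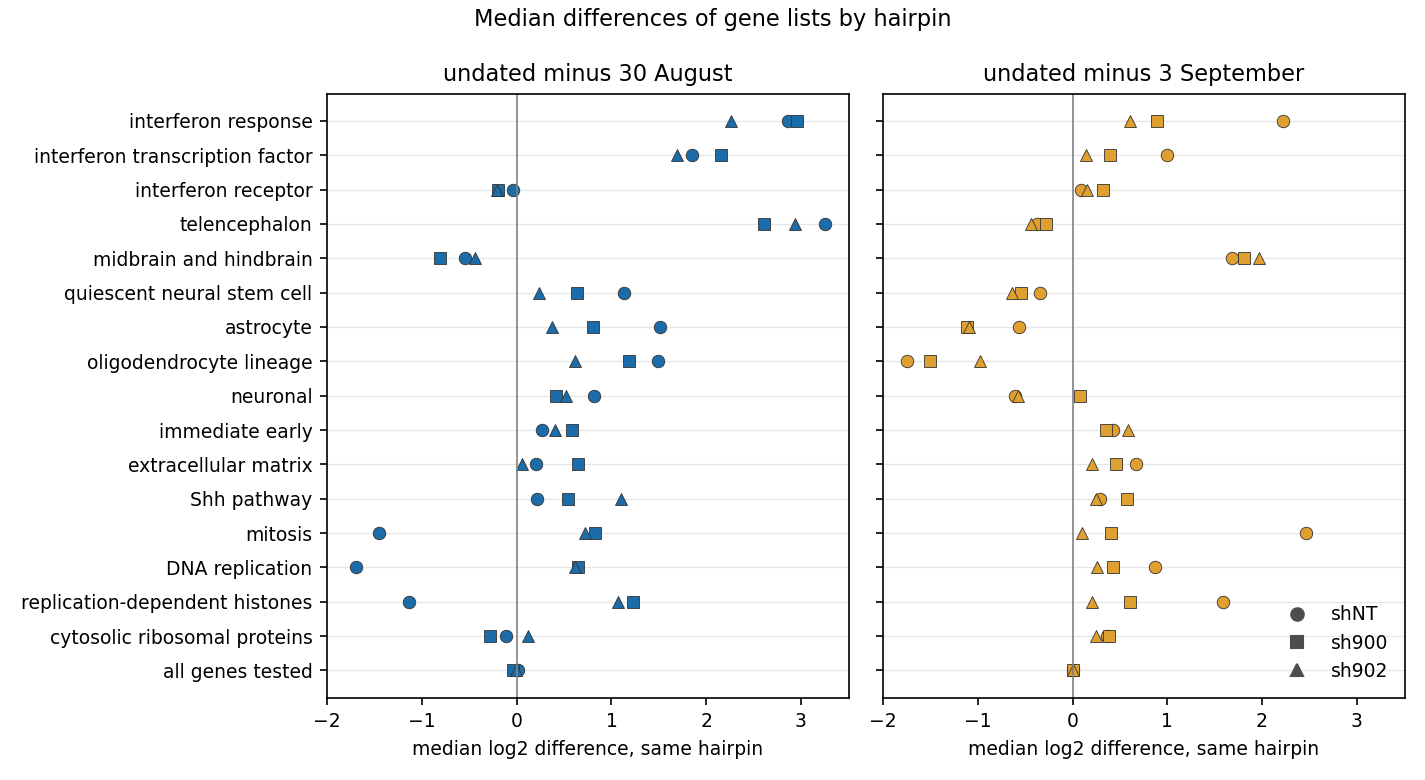
Median log2 difference of the genes of each list between the undated library and the library of 30 August (left) or 3 September (right) with the same hairpin (shape). The interferon response list is above 0 in all 6 comparisons, telencephalic and midbrain and hindbrain genes have opposite signs on the 2 sides, and mitosis genes have the opposite sign in the shNT comparison with 30 August.

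Other lists held few or no calls. Of 30 p53 target genes 1 rose and 3 fell against 30 August (2.16% and 1.02% of all genes). Among those that fell were Ccng1 (-1.05) and Mdm2 (-1.03), and 0 passed against 3 September. The calls of Ccng1 and Mdm2 against 30 August held in 5 and 3 of the 9 fits in that order (adjusted p up to 0.131). For 78 cytosolic ribosomal protein, 70 nuclear oxidative phosphorylation, 35 hypoxia and glycolysis, 24 cholesterol synthesis and 34 amino acid and unfolded protein genes, edgeR called 0 in any of the contrasts. Unadjusted, 37 of the ribosomal protein genes were higher against 3 September and 0 lower, with a lowest adjusted p of 0.166. Their medians against the mean of both dates ran from -0.15 (cholesterol synthesis) to 0.15 (hypoxia and glycolysis). Of 17 genes tested on the NF-kB and inflammatory list edgeR called 0, although 9 were higher than on 3 September at an unadjusted p under 0.05, with a median against the mean of both dates of 0.18 beside 2.13 for the interferon list. The pericyte, fibroblast, ependymal and microglial lists held 0 calls, and the endothelial list held 1. Flt1, a receptor of vascular growth factor, fell against 30 August, with a log2 difference of -2.88 ± 0.39 (SE, adjusted p = 0.00951), and was at 0.912, 1.09 and 0.822 CPM in the undated libraries. The call of Flt1 against 30 August was lost without the undated sh900 or sh902, or 30 August sh900 library (adjusted p up to 0.0784).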

How the data were processed

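RNA was measured by RNA-seq in 9 libraries. The deposited table holds estimated counts per gene for 54232 Ensembl genes, made by the authors with FastQC, cutadapt, Trimmomatic 0.36, STAR 2.5.0a and RSEM on GRCm38, per the submitters' processing notes; no source used here gives their order, the annotation or the strand setting. The values were whole numbers already. RSEM divides reads that match several genes by a model, so levels of close copies are uncertain. Symbols and coordinates came from GENCODE M21 by identifier (54079 matched, 153 did not), and promoter windows from RefSeq.

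Libraries were grouped by the date in the title. Totals of 23212472 to 32392496 counts leave genes under about 1 CPM with few counts. No 2 libraries were duplicates: the lowest chi-square per degree of freedom between any pair was 56.2. edgeR 4.0.16 in R 4.3.3 was used with TMM factors and its default expression filter, which left 17602 genes with 99.9% of the counts. Its quasi-likelihood test with robust dispersions was fitted with hairpin as a block and, in turn, with undated against dated, with 3 date labels, or with the undated effect split between shNT and the Phf2 hairpins. The pairing of libraries across labels by hairpin comes from the titles. A Benjamini-Hochberg adjusted p under 0.05 over all genes tested is called. Standard errors are the log2 difference divided by the square root of F. Alternatives were DESeq2 1.42.0, limma-voom (limma 3.58.1), other scalings and filters, the fit without the block, fewer hairpins, only the libraries compared, and each library left out in turn. Scripts were tested on simulated data.

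The comparison and the lists were chosen with earlier results of these data known. The rule for named genes took Phf2, up to 8 genes called against both dates in each direction with a mean of 1 CPM or more, and up to 4 called members and the 2 most abundant members of each list. Other genes, the role groups within the interferon pathway and the telencephalic and midbrain and hindbrain sets were picked after their values were seen. Some members counted in the lists are not reported here by name.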

Additional observations from a re-analysis of the deposited data

Results flagged for a closer look

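Of 122 sets of 6 dated libraries examined for a single library far from the rest, 2 stood out, and chance alone marks about 1 in 20 such sets. Etv5, a transcription factor gene downstream of fibroblast growth factor, was at 38.9 CPM in the 3 September control, where the median of the other 5 dated libraries was 402 CPM. Its gap to the nearest library was 0.716 of the whole range on the log2 scale, above the limit of 0.625. Kdr, a receptor gene of vascular growth factor, was at 7.46 CPM in the same library against a median of 2.18 CPM in the others, with a gap of 0.639 of the range. Both marks concern a dated library, and neither gene was called between undated and dated libraries.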

How the results depend on the processing

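The number of calls depended strongly on the processing, and the cause was not tested. Undated against dated, 0 genes became 54 with DESeq2 and 10 with no low-count filter, and stayed at 0 with each library left out. Against the mean of both dates, 69 calls became 321 with DESeq2, 268 with no low-count filter, 378 without the 3 shNT libraries, 1 without the 3 sh900 libraries, 0 without the 3 sh902 libraries and 0 to 324 with single libraries left out. Against 30 August, 561 calls became 1302 with DESeq2, 1071 with no low-count filter, 1139, 2 and 33 without the shNT, sh900 and sh902 libraries, 235 with only the 6 libraries compared and 97 to 846 with single libraries left out. Of the latter, 220, 188 and 193 were left without the undated shNT, sh900 and sh902 libraries, 319 without the 30 August sh902 library, and 358 and 329 without the 3 September sh900 and sh902 libraries. Against 3 September, 99 calls became 937 with DESeq2, 296 with limma-voom, 715 with no low-count filter, 878, 0 and 0 without the shNT, sh900 and sh902 libraries, 660 with only the 6 libraries compared and 0 to 835 with single libraries left out. In the fit with no replicate block (the hairpin term left out), the counts were 0 against the mean of both dates, 95 against 30 August and 2 against 3 September. The interaction had 0 calls in every fit that could be made. It could not be estimated without the undated control. The undated difference of Phf2 ran from -0.0052, without the 30 August sh900 library, to 0.25. In fits with 1 library left out, named genes kept their call in 517 and lost it in 185 cases against 30 August, in 107 and 190 against 3 September, and in 67 and 275 against the mean of both dates. The median positions between the dates moved to 0.387, 0.515 and 0.456 with genes 4-fold apart. Totals alone or RLE factors moved no count by more than 1.5 times. Genes under about 1 CPM, such as Ifi47 and Scg5 on 30 August, are limited by depth.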
